A study of Homo sapiens with 12 samples.

Results

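The response of T47D cells to progestin was measured across all genes in cells that had received a control siRNA (siCT). T47D is an established luminal breast cancer line that carries both the progesterone receptor and the estrogen receptor. The comparison was set by the siRNA and treatment labels: 3 siCT libraries from cells given 10 nM R5020 for 6 h, against 3 siCT libraries from cells given the same volume of the ethanol vehicle for 6 h. These are 6 of the 12 libraries of the series. The other 6 received an siRNA against PRMT1, a protein arginine methyltransferase, with the same pair of treatments, and serve here only as a second set of libraries. Cells of all groups were grown in RPMI medium with insulin and fetal bovine serum, and whether the serum was stripped of steroids before treatment is not given in the sources used here. Each group holds 3 biological replicates of 1 cell line. The libraries are bulk RNA, so more responding cells and more RNA per cell cannot be told apart.

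R5020 (promegestone) is a synthetic progestin. Bound by a progestin, the progesterone receptor enters chromatin as a dimer and recruits coactivators and corepressors. It shares its DNA element with the glucocorticoid and mineralocorticoid receptors, and many of its known targets are also known glucocorticoid targets. In breast epithelium progestins are known to drive paracrine growth signals, to push cells into a round of division that is followed by arrest, and to lower the receptor's own mRNA.

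Total counts ran from 27946362 to 34120937 over the 6 libraries. A pair of libraries stood apart, 1 in each group: mitochondrially encoded genes took 59.3% of counts in ethanol replicate 3 and 52.4% in R5020 replicate 1, against 31.3% to 33.1% in the other 4. Results are therefore given with and without this pair. Of the 9 luminal markers examined none was at 0 in all 6 libraries, with a summed level of 5036 to 12037 CPM in ethanol and 4844 to 8182 CPM in R5020 (CPM here is counts scaled to the library total). Of the 8 leukocyte markers 7 were under 1 CPM in every library, as were 10 of the 12 markers of basal or other breast lines, and the endothelial marker PECAM1, the erythroid marker HBB and the fibroblast marker COL1A2 were at 0. The 7 fibroblast markers, 5 of them under 1 CPM in every library, summed to 40.7 to 55.7 CPM in ethanol and 32.9 to 45.7 CPM in R5020, most of it COL1A1. The smooth muscle marker ACTA2 was at 27.7 to 63.5 and 25.2 to 50.4 CPM, and the adipocyte marker ADIPOQ at 7.95 to 11.1 and 4.04 to 4.37 CPM; the part of these in the results was not tested. From here on, levels are CPM after TMM scaling, in the order of replicates 1 to 3. PRMT1, which the siCT cells should keep, measured 42.3, 35.2 and 28.7 CPM with ethanol against 39.7, 48.1 and 35.4 CPM with R5020 (edgeR adjusted p = 0.81).

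R5020 raised 612 genes and lowered 255 of the 16975 tested (edgeR quasi-likelihood test, Benjamini-Hochberg adjusted p under 0.05), which is 3.61% and 1.5% of the genes tested, or 5.11% in either direction. The rises were larger than the falls. Of the genes that rose, 586 did so at least 2-fold, 239 at least 4-fold and 108 at least 8-fold. Of those that fell, 233 did so at least 2-fold, 59 at least 4-fold and 6 at least 8-fold. The median log2 fold change was 1.72 among the genes that rose and -1.51 among those that fell, with -0.02 over all genes tested. In all 867 the 3 R5020 libraries did not overlap the 3 ethanol libraries, as was also true of 20.8% of all genes tested. Without the pair that stood apart, all 867 kept their sign, and 584 of the 612 and 216 of the 255 were still called in a fit of 2 against 2 libraries that called 859 genes higher and 320 lower in all. The number of calls depended on single libraries. It fell to between 326 and 359 higher and between 63 and 130 lower when ethanol replicate 1 or 2 or R5020 replicate 2 or 3 was left out, to 520 and 162 without R5020 replicate 1, and it rose to 904 and 358 without ethanol replicate 3. Of the 139 called genes that the naming rules pick, 72 were called in each of these 6 fits, among them the 25 largest rises and 16 of the 25 largest falls. Those that were not include PGR, VDR, NOTCH2, CLDN1, EGF, TGFB2, IGFBP5 and ATP1B1.

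**Figure D1:**
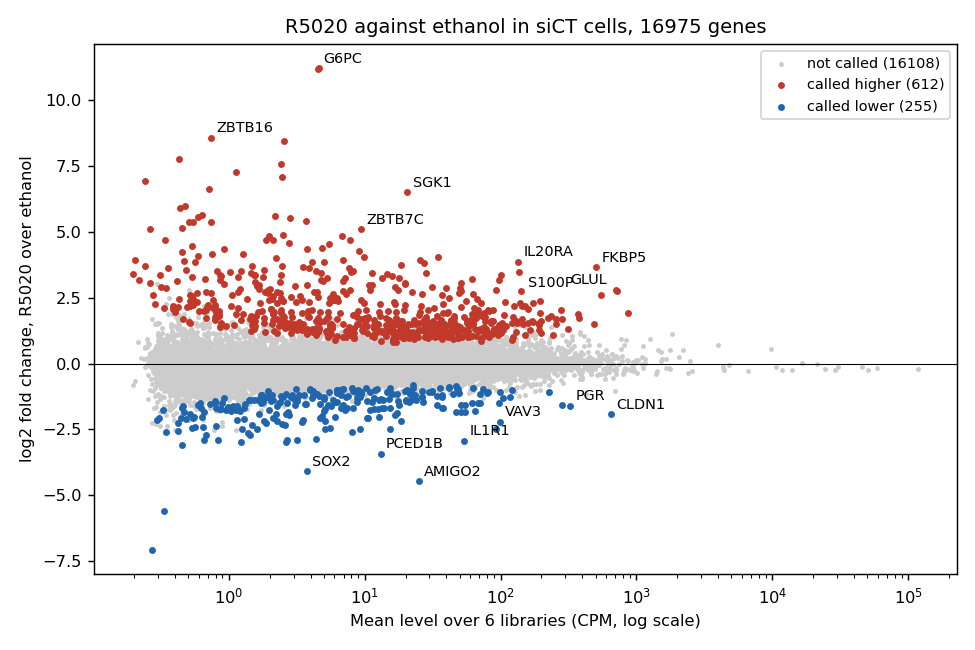
Each point is a gene, with its mean level over the 6 siCT libraries (CPM, log axis) against its log2 fold change, R5020 over ethanol. Red points are the 612 genes called higher and blue points the 255 called lower. For genes with 0 counts in ethanol, such as G6PC and ZBTB16, the plotted value is the fitted one, which depends on a prior count and is no estimate of size.

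Some nuclear receptor genes changed themselves, that of the progestin's own receptor among them. PGR, the gene of the progesterone receptor, measured 456, 616 and 393 CPM with ethanol against 131, 173 and 180 CPM with R5020. Every R5020 library lay far below every ethanol library, a fall of 3.03-fold (log2 fold change -1.60 ± 0.30 SE, edgeR adjusted p = 0.0153). VDR, the vitamin D receptor, moved the other way, from 79.1, 51.2 and 38.4 to 143, 228 and 198 CPM (log2 1.75 ± 0.33, edgeR adjusted p = 0.0169). With library totals in place of TMM scaling both kept their direction and were no longer called (adjusted p of 0.161 and 0.229). PGR also missed the threshold when any library other than ethanol replicate 3 was left out, with an adjusted p of 0.0949 at most, and VDR reached an adjusted p of 0.0959 at most with 1 library left out. ESR1, the estrogen receptor, measured 67.8, 80.1 and 73.1 CPM with ethanol against 44.2, 41.7 and 46.7 CPM with R5020. Its groups did not overlap, and the difference did not pass the test (log2 -0.74 ± 0.20, edgeR adjusted p = 0.0853). RARB, a retinoic acid receptor at under 1 CPM, also fell (log2 -1.70 ± 0.39), a call that was lost without the pair (edgeR adjusted p = 0.0521). In all, 1 of 26 tested steroid receptors and coregulators rose (3.85%) and 3 fell (11.5%), beside 3.61% and 1.5% over all genes tested. The chaperones of the unbound receptor gave no call, with log2 values of 0.49 for HSP90AA1 and 0.29 for PTGES3.

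Among 22 luminal and pioneer factors, 1 rose (4.55%) and 1 fell (4.55%), beside 3.61% and 1.5% over all genes tested. Both belong to the same family of epithelial transcription factors. GRHL2 rose from 76.5, 63.9 and 64.1 to 209, 229 and 217 CPM (log2 1.68 ± 0.23, edgeR adjusted p = 0.00385). GRHL3 fell from 8.24, 7.30 and 7.98 to 2.40, 2.48 and 2.18 CPM (log2 -1.73 ± 0.22, edgeR adjusted p = 0.00274). The libraries of each group lay close together for both genes. With library totals in place of TMM scaling GRHL2 was no longer called (edgeR adjusted p = 0.0943), while GRHL3 was (edgeR adjusted p = 0.0467). The keratin KRT18 (log2 -0.35) and the secretory factor XBP1 (log2 -0.19) were not called.

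Known progestin targets rose far more often than genes at large. Of 41 tested members 29 rose (70.7%, beside 3.61% over all genes tested) and none fell, with a median log2 of 1.61. Without the pair 30 rose and 2 fell. The list was written with knowledge of such studies and of earlier results of these data, so its direction is no independent evidence. SGK1, a kinase induced by corticosteroids and progestins, went from 0.407, 0.361 and 0.634 CPM to 48.1, 36.3 and 37.5 CPM, 90.0-fold (log2 6.49 ± 0.32, edgeR adjusted p = 8.17e-05). FKBP5, a co-chaperone that dampens steroid receptor activity, went from 83.1, 88.9 and 51.0 to 799.5, 996.1 and 991.7 CPM, 12.5-fold (log2 3.64 ± 0.34, edgeR adjusted p = 0.00062). S100P, a calcium-binding protein, went from 27.8, 22.9 and 17.8 to 255.6, 247.1 and 248.3 CPM (log2 3.45 ± 0.27). For S100P the R5020 libraries lay closer together than the ethanol libraries. HSD11B2, the enzyme that inactivates cortisol, rose 16.6-fold, and its 2 libraries from the pair that stood apart were the highest of their groups, at 5.81 CPM in ethanol and 90.2 CPM in R5020. SEC14L2, a lipid-binding protein (log2 4.05), and ALPL, an alkaline phosphatase (log2 3.93), rose as well. Members of the list without a call included MUC1 (log2 0.08) and BCL2L1 (log2 0.98), and BCL2L1 passed without the pair (adjusted p = 0.0236).

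The 25 largest rises among genes with at least 5 CPM lay between 9.47-fold and 90.0-fold. All 25 were also called without the pair, with library totals alone and over 12 libraries. Below SGK1 came ZBTB7C, a zinc finger factor, at 0.611, 0.472 and 0.528 CPM in ethanol and 15.9, 20.5 and 18.8 CPM in R5020 (33.9-fold). CHRM4, a muscarinic acetylcholine receptor, followed at 0.458, 0.305 and 0.687 against 15, 12.3 and 12.1 CPM (28.2-fold). FAM105A stood at 0.382, 0.472 and 0.528 against 13.2, 8.60 and 9.79 CPM (23.1-fold). These 3 genes were under 1 CPM in each ethanol library and above 8 CPM in each R5020 library. IL20RA, a receptor subunit for interleukins of the IL-20 family, went from 18.1, 16.9 and 17.2 CPM to 259.0, 250.6 and 251.0 CPM (14.6-fold), with little spread in either group. The others included 3 signalling proteins, namely NET1, a guanine nucleotide exchange factor (log2 3.36), NEDD9, a docking protein of focal adhesions (log2 3.24), and TRIM22, best known as an interferon-induced antiviral protein (log2 3.43). They also included the potassium channel KCNH1 (log2 3.63), the mitochondrial carrier SLC25A18 (log2 3.40), the acyl-CoA thioesterase ACOT6 (log2 3.82), tissue factor F3 (log2 3.75), the membrane protein PLLP (log2 3.91), the adhesion receptor GPR124 (log2 4.25), and SYBU and SOGA2 (log2 3.41 and 3.52).

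**Figure D2:**
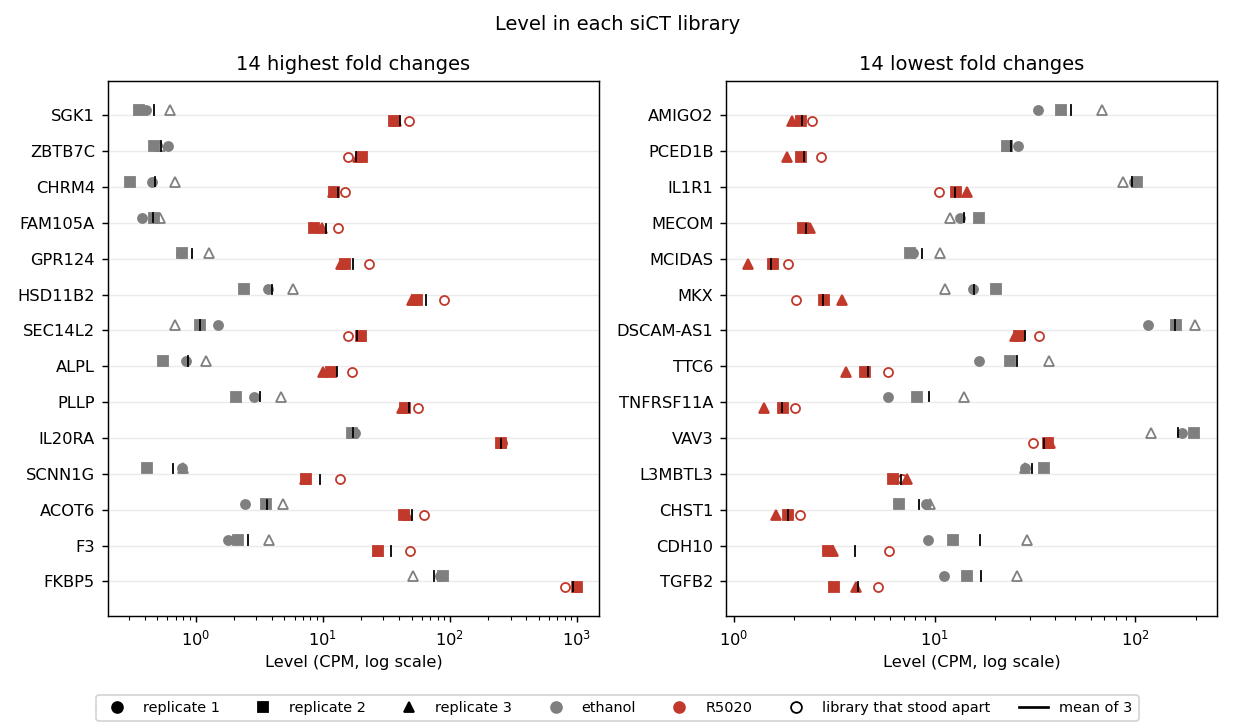
Level (CPM, log axis) in each siCT library for the 14 highest and 14 lowest called fold changes (genes averaging 5 CPM or more). Grey symbols are ethanol and red symbols R5020, open symbols mark the 2 outlying libraries, and black ticks are means of 3. Only genes whose groups do not overlap were eligible, so the gap between red and grey follows from the choice of genes.

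Several genes had no reads in ethanol and clear counts in R5020. CORO2B, an actin-binding coronin, had 0 counts in the 3 ethanol libraries and 208, 397 and 304 counts in the R5020 libraries. G6PC, which encodes the enzyme that releases free glucose from glucose 6-phosphate, had 0 against 197, 383 and 317 counts. ZBTB16, the zinc finger repressor PLZF and a well-known steroid hormone target, had 0 against 37, 59 and 48 counts, and TEDDM1 had 0 against 19, 12 and 13. Set against a floor of 3 counts per library (0.106 CPM on average), these are rises of at least 86.6-fold for CORO2B, 85.3-fold for G6PC, 13.9-fold for ZBTB16 and 4.55-fold for TEDDM1. This limit covers counting error only. The medians of the lists did not move when such genes were put at their lower bounds.

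The reads taken by the called genes describe the size of the shift and, since the genes were picked on these libraries, add no support for it. The 612 genes that rose took 10374 ± 337 CPM in sum in ethanol and 34785 ± 432 CPM in R5020 (SD, n = 3). The 255 that fell took 7599 ± 1100 and 2749 ± 156 CPM. The share of genes that rose was highest at low starting levels, at 7.10% of the 2534 genes under 1 CPM in ethanol, against 3.52% of those at 1 to 5 CPM, 3.04% at 5 to 20, 2.84% at 20 to 100 and 1.61% of the 1116 genes at 100 CPM or more. The share that fell was 0.868%, 2.15%, 1.54%, 1.29% and 1.43% in the same bins. A gene that is low in ethanol passes the filter on low counts more easily if it is high in R5020, so the first bin is not a fair sample. The largest gains in reads came from GLUL, glutamine synthetase, at 217, 199 and 149 CPM in ethanol and 1115, 1337 and 1330 CPM in R5020 (log2 2.74 ± 0.31, edgeR adjusted p = 0.00142), and from FKBP5, NOTCH2 and DYNLL1 among others. DYNLL1, a dynein light chain, went from 187, 183 and 91.4 to 702, 1057 and 1055 CPM (log2 2.61 ± 0.38, edgeR adjusted p = 0.00527). EFHD1, STOM, IL6ST, ATP1B1, SLC22A23, YTHDF1 and MAT2A were also among the 12 largest gains, with log2 values from 1.31 for MAT2A to 2.03 for ATP1B1.

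The promoters of the 25 genes with the largest rises were searched for the letters of the receptor's DNA element, because it is the element through which the hormone is known to act. RefSeq windows from 250 bases before to 50 bases after the start (GRCh38.p14) were at hand for 19 of the 25. No window held the palindrome of GNACA and TGTNC separated by 3 bases, and 4 held its single-arm hexamer TGTTCT on either strand. The match of FKBP5 begins at the start site itself and is not shown. The other 3 are upstream and are printed below 5′ to 3′ on the gene's strand, with the hexamer, read there as its reverse complement, in capitals.
STAT5A, chr17:42287320-42287369, + strand: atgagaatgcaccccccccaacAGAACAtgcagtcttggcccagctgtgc
LEF1, chr4:108166302-108166333, - strand: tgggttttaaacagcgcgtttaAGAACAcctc
NEDD9, chr6:11382461-11382510, - strand: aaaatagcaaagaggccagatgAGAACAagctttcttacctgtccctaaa
STAT5A, a transcription factor of prolactin signalling, stood at 1.48, 1.05 and 1.43 CPM in ethanol and 14.3, 14 and 15.3 CPM in R5020 (log2 3.46 ± 0.25, edgeR adjusted p = 0.000171). LEF1, a factor of Wnt signalling, stood at 2.34, 3.19 and 3.17 against 28.2, 28.5 and 29.8 CPM. NEDD9 stood at 3.72, 3.27 and 3.33 against 31.3, 35.3 and 31.3 CPM. The hexamer was found in 8.41% of 428 promoters of genes that rose, 10.7% of 178 of genes that fell and 8.90% of 10792 of all genes tested, and in 13.7% of the 153 of genes that rose at least 4-fold. Over all 27305 promoters in the table the share was 14.9%. The palindrome was in 0.234%, 1.12% and 0.204% of the promoters of genes that rose, fell and were tested. These are matches of letters in a short window, with no measure of binding.

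Transcription factor genes changed in both directions. Of 63 tested factors that hormones are known to act on, 21 rose (33.3%) and 8 fell (12.7%), with a median log2 of 0.28. Over all genes tested 3.61% rose and 1.5% fell. PRDM1, the repressor BLIMP-1, rose from 0.560, 0.999 and 0.845 to 7.73, 9.39 and 8.97 CPM (10.9-fold). RUNX1, a partner and modifier of estrogen receptor activity, rose from 22.9, 21.6 and 17.3 to 105, 122 and 114 CPM (5.52-fold, edgeR adjusted p = 0.000592). SOX2, a pluripotency factor, fell most: it went from 6.79, 7.43 and 7.13 CPM to 0.512, 0.418 and 0.324 CPM, 17.0-fold lower (log2 -4.09 ± 0.28, edgeR adjusted p = 0.000164). MECOM (log2 -2.61), MKX (log2 -2.49), FOXP1 (log2 -1.76) and MYB (log2 -0.97, adjusted p = 0.0504 without the pair) fell too, and so did TP63 and TWIST1, 2 factors of the basal and mesenchymal marker list, from around 1 CPM (log2 -2.42 and -2.44). SNAI1 of the same list rose (log2 1.65). HES1 and BHLHE40, of higher read counts, were not called (log2 -0.40 and 0.12). Of 17 clock genes 2 rose (11.8%) and none fell. They were PER1 (log2 1.57) and NFIL3 (log2 1.04), and NFIL3 missed the threshold without the pair (edgeR adjusted p = 0.0519).

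**Figure D3:**
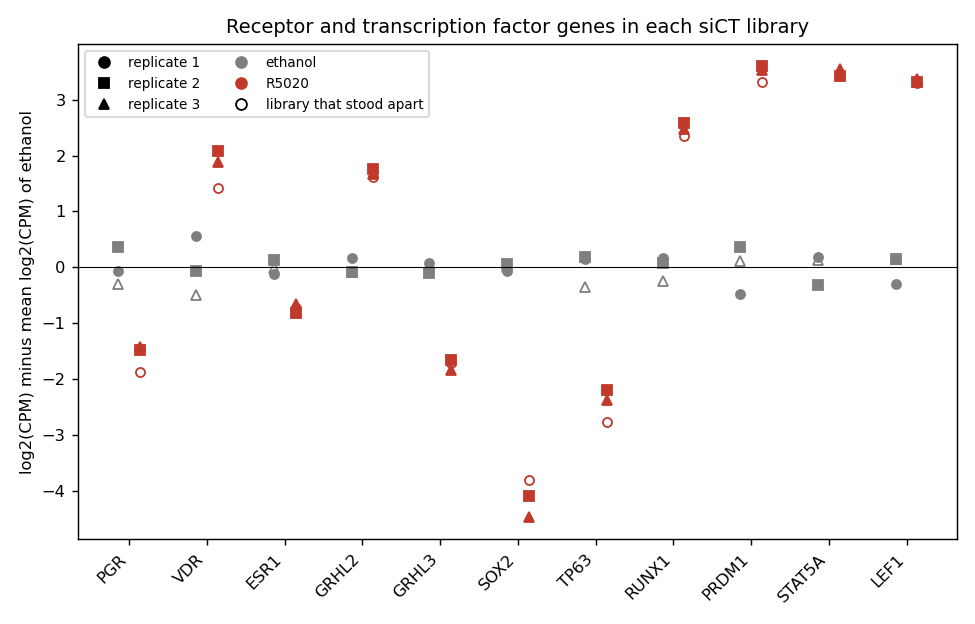
For 11 receptor and transcription factor genes, log2(CPM) in each siCT library minus the gene's mean log2(CPM) in ethanol. Grey symbols are ethanol, red symbols R5020, and open symbols the 2 outlying libraries; SOX2 lies lowest and PRDM1, STAT5A and LEF1 highest, and the ESR1 values differ without passing the test.

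Genes of growth signals between cells moved both ways. Of 46 secreted ligands 5 rose (10.9%) and 3 fell (6.52%), beside 3.61% and 1.5% over all genes tested. The differences of this list and those below from these shares were not tested. FGF18 rose from 0.102, 0.0832 and 0.0528 to 1.54, 1.99 and 1.74 CPM (20.1-fold). The epidermal growth factor receptor ligand TGFA rose from 12.2, 11.2 and 16.6 to 45.1, 39.3 and 39.4 CPM (3.10-fold, edgeR adjusted p = 0.0043), and EGF from 4.68, 5.80 and 10.6 to 45.5, 25.5 and 26.2 CPM (log2 2.22). The Notch ligand JAG1 (log2 1.94) and IGF1, at under 1 CPM (log2 3.71), rose as well. TGFB2, a ligand of the TGF-beta family, fell from 11.2, 14.4 and 25.7 to 5.20, 3.16 and 4.04 CPM (log2 -2.05), as did IGFBP5, which binds insulin-like growth factors (log2 -1.57). For EGF, TGFB2 and IGFBP5 the libraries that stood apart were the highest of their groups. CYR61 and STC2 were not called over 6 libraries (log2 0.87 and -1.12) and were called without the pair (1.14 and -0.96).

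Of 47 surface receptors 6 rose (12.8%) and 4 fell (8.51%), beside 3.61% and 1.5% over all genes tested. NOTCH2 rose from 232, 258 and 605 to 1930, 1085 and 1105 CPM, a log2 value of 1.91 ± 0.46 that only just passed (edgeR adjusted p = 0.0499). IL6ST, the shared signalling subunit of IL-6 family receptors, rose (log2 1.72). IL1R1, the interleukin-1 receptor, fell from 99.0, 102 and 87.1 to 10.5, 12.8 and 14.5 CPM, 7.61-fold (log2 -2.93 ± 0.23, edgeR adjusted p = 0.000265). TNFRSF11A, the receptor RANK, fell from 5.88, 8.13 and 14.1 to 2.01, 1.75 and 1.42 CPM (log2 -2.43). BMPR1B (log2 -2.31) and the prostaglandin receptor PTGER3 (log2 -1.09) were the others of these 4. Outside the list, the G protein-coupled receptors GRPR (log2 -1.83) and GPR158 (log2 -1.88) fell too. The prolactin receptor PRLR and ERBB3 were not called (log2 -0.25 and -0.60). Without the pair 11 of the 47 rose and 6 fell.

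Inside the cell, 9 of 48 kinases, phosphatases and signalling regulators rose (18.8%) and 5 fell (10.4%), beside 3.61% and 1.5% over all genes tested. ERRFI1, an inhibitor of the EGF receptor, rose from 57.4, 49.6 and 59.6 to 298, 229 and 219 CPM (4.48-fold, edgeR adjusted p = 0.00159), and the MAP kinase phosphatase DUSP1 rose (log2 1.54). The survival kinase PIM2 rose (log2 2.28). SPRY1, an inhibitor of receptor tyrosine kinase signalling, fell from 22.3, 21.3 and 21.7 to 9.38, 9.36 and 10.6 CPM (log2 -1.15), and the kinase NUAK2 fell as well (log2 -1.57). VAV3, a guanine nucleotide exchange factor, fell from 171, 197 and 120 to 30.9, 36.6 and 37.6 CPM (4.64-fold). PLK2, a stress-linked polo-like kinase, fell by less (log2 -1.25).

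Each call in the cell cycle lists was a rise, beside a share of 3.61% that rose over all genes tested. Of 27 G1 regulators 4 rose (14.8%) and none fell. CCND1, cyclin D1, went from 44.2, 36.8 and 32.2 to 101, 127 and 117 CPM (log2 1.61 ± 0.23, edgeR adjusted p = 0.00495). E2F1, a factor that drives replication genes (log2 1.54), and CCNE2, a cyclin of the G1 to S step (log2 1.51), rose alongside the cell cycle inhibitor CDKN1C, which went from 0.611, 0.499 and 0.370 to 4.06, 4.21 and 4.63 CPM (8.44-fold). Of 50 replication genes 7 rose and none fell, 49 had a log2 value above 0, and their median was 0.52. GINS2, a subunit of the replicative helicase complex, rose most of those, from 48.1, 38.5 and 25.1 to 184, 279 and 280 CPM (6.64-fold), followed by MCM5 (log2 1.51), POLE2 (log2 1.33), CDC6 (log2 1.28), MCM10 (log2 1.23) and ORC1 (log2 1.21). PCNA and MCM4 were not called (log2 0.59 and 0.53). Of 42 genes of G2 and mitosis only KIF23, a kinesin of cytokinesis, rose (2.38%, log2 0.94), with a median of 0.14 over the list. MKI67 was not called (log2 0.34). With library totals alone none of the named cell cycle genes but CDKN1C was called. The difference between these lists was not tested.

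In metabolism 8.70% of glucose genes, 17.2% of hypoxia targets, 4.44% of lipid genes and 8.33% of steroid and drug enzymes rose. Over all genes tested 3.61% rose, and the difference from that share was not tested. Of 46 genes of glucose metabolism 4 rose and none fell: PFKFB3, which makes the activator of glycolysis fructose 2,6-bisphosphate, from 34.8, 30.7 and 32.9 to 127, 133 and 135 CPM (log2 2.00 ± 0.21, edgeR adjusted p = 0.00107), PDK4, an inhibitor of pyruvate oxidation (log2 3.15), HK2, a hexokinase (log2 1.17), and G6PC. Of 29 hypoxia targets 5 rose and none fell, with a median of 0.45 over the list. They were NDRG1 (log2 1.55), BNIP3 (log2 1.45), P4HA2 (log2 2.02), and PFKFB3 and HK2, which the glucose list also holds. PFKFB3 was called in each of the 6 fits with 1 library left out. NDRG1 and BNIP3 were called in 3 of those fits, and P4HA2 and HK2 in 4. LDHA was not called over 6 libraries (log2 0.90, adjusted p = 0.167) and was without the pair (log2 0.87, adjusted p = 0.0104). Of 45 genes of lipid metabolism 2 rose, ACSL1, an acyl-CoA synthetase (log2 1.60), and PLIN2, a lipid droplet protein (log2 1.53), and 1 fell, the coactivator PPARGC1A (log2 -1.76). The fat synthesis genes SCD and FASN were not called over 6 libraries (log2 1.12 and 1.04) and were called without the pair (log2 1.35 and 1.03). Of 24 enzymes of steroid and drug metabolism 2 rose, HSD11B2 and the retinoic acid hydroxylase CYP26A1 (log2 2.12).

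Of 41 ion and solute transport genes 3 rose (7.32%) and 2 fell (4.88%), beside 3.61% and 1.5% over all genes tested. ATP1B1, a membrane transport gene, stood at 72.1, 88.8 and 169 against 621, 355 and 375 CPM (log2 2.03 ± 0.40). Its libraries from the pair that stood apart were the highest of their groups, and without them the log2 value was 2.19. SCNN1G, a subunit of the epithelial sodium channel, rose from 0.789, 0.416 and 0.793 to 13.7, 7.35 and 7.29 CPM (log2 3.84). The amino acid carrier SLC6A14 (log2 -2.91) and the channel TRPM8 (log2 -1.59) fell, and the iron exporter SLC40A1 was not called (log2 -1.03). Without the pair 11 of the 41 rose and 3 fell.

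Among cell surface and cytoskeleton genes were some of the strongest falls. Of 57 tested, 7 rose (12.3%) and 4 fell (7.02%), beside 3.61% and 1.5% over all genes tested. AMIGO2, an adhesion protein, fell from 32.7, 42.6 and 68.4 to 2.44, 2.17 and 1.95 CPM, 21.9-fold (log2 -4.45 ± 0.34, edgeR adjusted p = 0.000235). PCED1B, its neighbour on the chromosome, fell from 26.0, 23.1 and 23 to 2.72, 2.17 and 1.83 CPM (10.8-fold). CLDN1, a claudin of tight junctions, had the largest loss in reads, from 637, 823 and 1637 to 367, 217 and 230 CPM (log2 -1.93 ± 0.43, edgeR adjusted p = 0.0356). The spread within its ethanol group was wide because of replicate 3, and without the pair the log2 value was -1.70. PKP1, a plakophilin of desmosomes, rose from 0.178, 0.194 and 0.0528 to 2.76, 4.68 and 4.75 CPM (25.7-fold), and MTSS1, an actin regulator, rose (log2 1.46). E-cadherin, CDH1, was not called (log2 -0.35). The 25 largest falls lay between 3.39-fold and 21.9-fold. All 25 were also called without the pair and 19 with library totals alone. They included DSCAM-AS1, a long noncoding RNA known to depend on the estrogen receptor (116, 160 and 199 against 33.2, 26.4 and 25.2 CPM), whose reads cannot be told from those of DSCAM without a stated strand setting. TTC6 (log2 -2.47), MCIDAS, a regulator of multiciliated cells (log2 -2.50), L3MBTL3 (log2 -2.17), CHST1 (log2 -2.16), CDH10 (log2 -2.08), C6orf141 (log2 -2.02), SEMA6A (log2 -1.94), LMCD1 (log2 -1.83), SPTSSB (log2 -1.82), IGDCC3 (log2 -1.80), ZBED5 (log2 -1.79) and DCDC2 (log2 -1.76) were among them. The larger losses in reads also included SATB1 (log2 -1.07), SPTLC2 (log2 -1.51), ZFP36L2 (log2 -1.29) and KCNK2 (log2 -0.99).

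Estrogen targets split evenly, with 3 of 30 up and 3 down (10% each), beside 3.61% and 1.5% over all genes tested. GREB1, a coregulator that both hormones are known to induce, rose from 63.8, 47.6 and 75.9 to 377, 308 and 291 CPM (5.21-fold), and RAPGEFL1 (log2 1.60) and CCND1 rose, while PGR, DSCAM-AS1 and MYB fell. CTSD was not called (log2 0.14). Without the pair 6 of the 30 rose and 3 fell.

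Among inflammation genes, 4 of 22 rose (18.2%) and 1 fell (4.55%), beside 3.61% and 1.5% over all genes tested. The genes that rose were NFKBIA, the inhibitor of NF-kB, from 53.9, 37.9 and 35.0 to 116, 138 and 130 CPM (log2 1.60 ± 0.25), TSC22D3, known as GILZ (log2 1.55), the mRNA-decay factor ZFP36 (log2 1.23) and the superoxide dismutase SOD2 (log2 1.81), itself a known NF-kB target. IL1R1 was the gene that fell. With library totals alone none of the 4 rises was called, while the fall of IL1R1 was. Of the 6 fits with 1 library left out, NFKBIA was called in each, SOD2 in 4, TSC22D3 in 3 and ZFP36 in 1. Of 41 interferon response genes 1 rose (2.44%), HERC5 (log2 1.20), and 2 fell (4.88%), IFI44L (log2 -1.38) and MX2 (log2 -1.02). With library totals alone none of the 41 was called. Of the 6 fits with 1 library left out, HERC5 was called in 3, IFI44L in 4 and MX2 in 1. The list's median was -0.30, beside -0.02 over all genes tested, and 5 of the 41 had a log2 value above 0. Of 37 heat shock and unfolded protein genes 3 rose (8.11%), FKBP5, DNAJB4 (log2 2.25) and DNAJB1 (log2 1.20), and none fell. HSPA8 and HSPB1 were not called (log2 0.53 and 0.52). Of 34 genes of apoptosis and survival 3 rose (8.82%) and none fell. Among them were the stress genes GADD45A (log2 1.33) and GADD45B (log2 0.95), of which GADD45B missed the threshold without the pair (edgeR adjusted p = 0.0504).

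Some lists served as references. None of 47 ribosomal protein genes, 15 mitochondrially encoded genes, 9 nuclear noncoding RNAs or 6 tested markers of stroma, leukocytes and endothelium was called. Their medians were 0.08, -0.20, 0.10 and -0.25. In the siPRMT1 libraries, whose spread was smaller, R5020 raised 17 of the ribosomal protein genes and 13 of the mitochondrially encoded genes, and lowered none. There 46.6% of all genes tested were called. MT-ND4 and MALAT1 were highest in the pair of libraries and gave no call for the treatment: MALAT1 gave 252, 391 and 1468 CPM with ethanol against 926, 238 and 249 CPM with R5020.

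**Figure D4:**
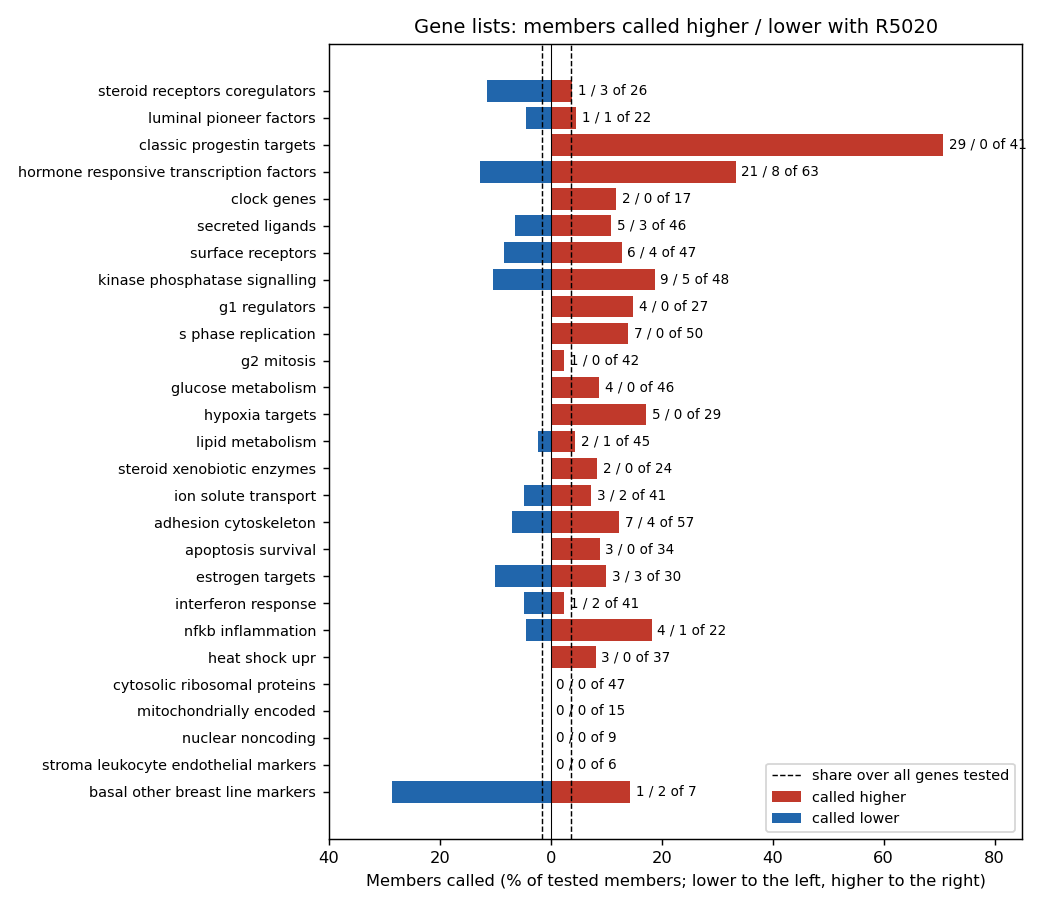
Bars show the percent of tested members of each gene list called higher (right, red) or lower (left, blue) with R5020 in siCT cells, and the text beside each bar gives the numbers called higher / lower of those tested. Dashed lines are the shares over all genes tested, 3.61% higher and 1.5% lower; the list of known progestin targets reaches furthest right, with 29 of 41.

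The 6 siPRMT1 libraries gave a second look at the same hormone, since they share no sample with the siCT comparison. There 7817 of 16759 genes tested were called in either direction (46.6%), in libraries whose spread was far smaller (common biological coefficient of variation 0.0462 and 0.0753, against 0.325 in siCT ethanol and 0.213 in siCT R5020). Of the 593 genes that rose in siCT cells and were tested there, 591 had the same sign and 584 were called with it. Of the 246 that fell, 244 had the same sign and 241 were called with it. Over all genes with a log2 value above 0 in siCT cells, 78.8% had the same sign and 46.7% were called with it. For those below 0, these shares were 79.2% and 41.6%. SGK1 had a log2 value of 5.74 there, FKBP5 3.49, AMIGO2 -3.80, SOX2 -4.37 and PGR -2.05. A direct test of the difference between the R5020 effects (interaction over 12 libraries, edgeR) called 12 of 17727 genes (0.0677%), of which 5 were among those that rose in siCT cells and 4 among those that fell. That fit uses a common spread for all 12 libraries, which understates the spread of the siCT libraries. Its p-values may therefore be too small.

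**Figure D5:**
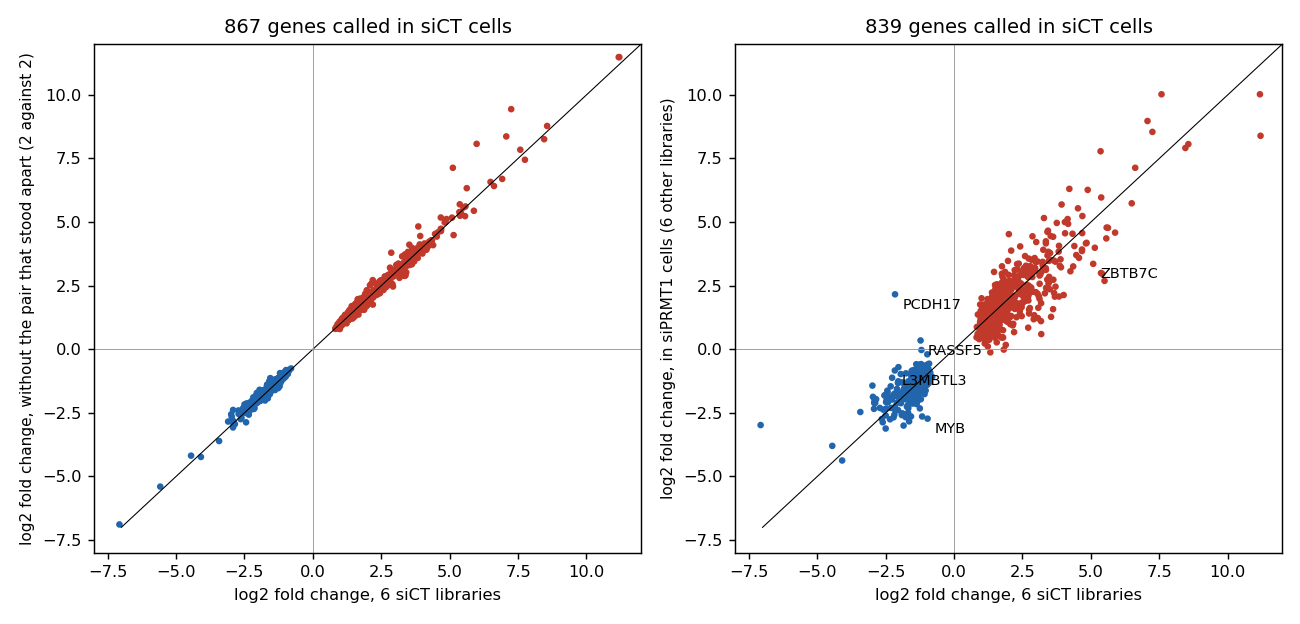
Log2 fold change, R5020 over ethanol, of the genes called in siCT cells. The horizontal axis is the fit of 6 siCT libraries; the vertical axis is the fit without the pair that stood apart (left, 867 genes, all with the same sign) or the fit of the 6 siPRMT1 libraries (right, 839 genes tested there), with the line of equality; PCDH17 and RASSF5 lie on the other side of 0 in siPRMT1 cells.

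The authors' deposited table of the same comparison called 849 of these tested genes higher and 396 lower at its adjusted p under 0.05. In the authors' deposited table, of the genes with a value, 607 of the 609 that rose here were called higher, and 249 of the 255 that fell were called lower. ESR1, not called here, had an adjusted p of 0.0201 in the authors' deposited table.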

How the data were processed

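RNA of T47D cells was extracted with TRIzol and made into libraries with the Lexogen SENSE mRNA kit, per the labels' protocols. The authors deposited 1 table of raw read counts per gene symbol for each sample (55765 genes). The build hg19 and the tools HTSeq 0.9.1, Bowtie2 2.3.2.2 and DESeq2 are named, per the submitters' processing notes. The role of each tool, the annotation, strandedness and duplicate handling were not given in the sources used here, so overlapping, antisense and near-identical genes may share or lose reads. A second deposited file holds the authors' log2 fold changes and adjusted p-values, used only to set its calls beside those made here.

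The 6 siCT libraries were fitted alone with edgeR 4.0.16 (R 4.3.3): filterByExpr with a minimum count of 10, TMM scaling, the robust quasi-likelihood test, and p-values adjusted by Benjamini-Hochberg over 16975 genes, called at 0.05. They were not fitted with the siPRMT1 libraries, which vary less. The replicates are biological per the labels. The procedure was run on simulated counts drawn independently for each gene and library. They held no shift like that of the pair that stood apart, so the run cannot tell how that pair affects the calls. Levels are CPM, and SE is that of the log2 fold change. Values of SE and SD hold the spread between replicates, while the floor of 3 counts covers counting error only. Alternatives were other scalings, filters and tools (DESeq2 1.42.0, limma 3.58.1), a replicate block, and leaving libraries out.

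The comparison, the 27 gene lists and the rules were chosen with earlier results of these data known. Named genes are PGR, ESR1 and PRMT1, the 25 highest and 25 lowest called fold changes averaging 5 CPM or more whose groups do not overlap, the 12 largest gains and 12 largest losses in CPM, genes at 0 in one group with at least 10 counts in each library of the other, and, per list, up to 6 called members by adjusted p and up to 2 uncalled ones by level. Clone names were passed over, and some genes that the rules name are not reported here. PCDH17 and RASSF5 and the pairs of neighbours were chosen after their values were seen. Promoter sequences and gene order are from RefSeq (GRCh38.p14), matched by symbol: 14329 of the tested genes matched a gene and 10792 a promoter. The build differs from that of the counts, so no coordinates were joined.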

Additional observations from a re-analysis of the deposited data

Results flagged for a closer look

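For 5 of the named genes the R5020 effect in siPRMT1 cells differed from that in siCT cells by the interaction test over 12 libraries (edgeR adjusted p under 0.05), each given as the siPRMT1 effect minus the siCT effect. ZBTB7C rose in both, by less in siPRMT1 cells: its log2 values were 5.08 and 3.36, a difference of -1.70 ± 0.24 SE (adjusted p = 0.028), with 3.19 ± 0.0538 CPM in siPRMT1 ethanol and 33.0 ± 1.68 CPM in siPRMT1 R5020 (SD, n = 3). L3MBTL3 fell by less, with a difference of 1.36 ± 0.22 (adjusted p = 0.0401). It went from 5.01 ± 0.390 to 2.82 ± 0.209 CPM in siPRMT1 cells, against 30.5 ± 3.99 to 6.80 ± 0.537 CPM in siCT cells. MYB, a factor of proliferating luminal and blood cells, fell by more, with a difference of -1.73 ± 0.21 (adjusted p = 0.0205). It went from 14.2 ± 0.484 to 2.15 ± 0.0676 CPM in siPRMT1 cells, against 4.16 ± 0.196 to 2.12 ± 0.176 CPM in siCT cells. The siCT levels are scaled within the 6 siCT libraries. Whether these differences follow from the ethanol levels was not tested. PCDH17, a protocadherin at under 1 CPM, fell in siCT cells and rose in siPRMT1 cells, with a difference of 4.34 ± 0.58 (adjusted p = 0.028). Its fall in siCT cells rests on 13, 20 and 11 counts against 4, 2 and 4. That fall was not called without the pair (edgeR adjusted p = 0.0656), nor in the authors' deposited table (adjusted p = 0.0568). RASSF5, a Ras effector, did likewise, with log2 values of -1.23 and 0.35 and a difference of 1.60 ± 0.24 (adjusted p = 0.031). With the 2 outlying libraries left out, all 5 interactions were still called (adjusted p from 0.00204 for MYB to 0.0101 for L3MBTL3). Both fits use a common spread for siCT and siPRMT1 libraries, which understates that of the siCT libraries. These adjusted p-values may therefore be too small.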

How the results depend on the processing

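The main counts of 612 genes higher and 255 lower became 1314 and 937 in one fit of all 12 libraries, 259 and 84 with library totals alone, 872 and 451 with DESeq2, 1092 and 630 with limma voom and quality weights, and 964 and 469 with no filter on low counts. Leaving out each library in turn gave 326 to 904 higher and 63 to 358 lower. Without the pair that stood apart, without mitochondrially encoded genes, or with at least 10 counts in 3 libraries the counts stayed within 1.5 times of the main ones. No called gene that the naming rules pick changed sign under these 15 settings where it was tested. Of 139 such genes the number still called was 134 without the pair, 79 with library totals alone, 125 with a replicate block, 88 and 90 without ethanol replicate 1 and 2, 119, 83 and 86 without R5020 replicate 1, 2 and 3, and 139 without ethanol replicate 3; the cause was not tested. Deviations of libraries with the same replicate number had correlations of -0.557, 0.307 and -0.709, and those of the pair that stood apart 0.838. Deviations were taken from the mean of each group, so these values depend on each other. They cannot show whether libraries of the same number were prepared together. With a replicate block 583 genes were higher and 190 lower, and 678 of the calls were shared with the main fit.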

Other observations

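Some genes next to each other on the chromosome were called in the same direction. Of 14299 pairs of neighbouring tested genes (RefSeq order, GRCh38.p14), 64 had both members called higher, 15 both lower and 13 called in opposite directions. Of the 1117 places next to a gene called higher, 128 were held by another gene called higher (11.5%), against 3.90% of all placed genes, and of the 450 places next to a gene called lower 30 were held by another gene called lower (6.67%), against 1.57%. The difference between these shares was not tested. Reads that run on from 1 gene into the next, or genes that overlap, would also give such pairs, and their part was not tested. Among the pairs were GJA3, GJB2 and GJB6, a cluster of connexin genes (log2 1.89, 4.39 and 3.85), KCNJ11 and ABCC8, the subunits of the ATP-sensitive potassium channel (2.96 and 3.36), the paralogs STAT5B and STAT5A (1.02 and 3.46), the serpins SERPINA5 and SERPINA3 (3.06 and 2.46), and SLC15A2 and EAF2 (4.56 and 4.35). Among the pairs that fell were AMIGO2 and PCED1B (-4.45 and -3.43), CLDN16 and CLDN1 (-1.11 and -1.93), and MCIDAS and CCNO, both known from multiciliated cells (-2.50 and -1.67). PGR fell beside ARHGAP42, which rose (-1.60 and 2.01).

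By RefSeq gene type, 525 of 12666 protein-coding genes rose (4.14%) and 207 fell (1.63%). Of 481 long noncoding genes 13 rose (2.70%) and 16 fell (3.33%), so that the falls were the more frequent call there, and of 1143 pseudogenes 21 rose (1.84%) and 2 fell (0.175%). A further 2646 tested genes were not matched to a type, and 53 of them rose (2.00%) and 30 fell (1.13%). The difference between these types was not tested.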
